A study of Mus musculus with 8 samples.

Results

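The genes described here encode the chains of collagens other than those of cartilage, and were taken as every row of the deposited count table whose gene symbol reads Col, a number, a and a number, without Col2a1, Col9a1, Col9a2, Col9a3, Col11a1 and Col11a2. The rule found 36 genes of 19150 in the table. The table holds 42 collagen chain genes, and the 6 cartilage genes were left out by name. Expression was measured by RNA sequencing of lungs taken whole from E17.5 mouse embryos of C57BL background, after oesophagus, trachea and bronchi had been removed. The control lungs, female and male, are set against mutant lungs, female and male, whose epithelium carries a constitutive active form of the TGF-β receptor 1, so that signalling by transforming growth factor beta is switched on there. Each of the 4 groups has 2 libraries, numbered 1 and 2. No source used here names the promoter or Cre line that drives the receptor, or says whether each library is 1 animal, so p-values measure the spread between these libraries, which may be technical. The title of the series concerns TGF-β signalling and the male disadvantage in bronchopulmonary dysplasia, the chronic lung disease of preterm infants, so that the genotype difference within each sex and the difference between the sexes are the comparisons the design implies.

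Collagens are trimers of chains that each carry long runs of a repeated glycine motif and wind into a triple helix. Fibrillar collagens build the cables of the interstitium, network collagens such as type IV form the sheet of the basement membrane under epithelium and endothelium, type VI forms beaded filaments around cells, and smaller families attach to fibrils, span the cell membrane or are cut to release signalling fragments such as endostatin. TGF-β is a textbook inducer of collagen genes in fibroblasts. In this model the active receptor is in the epithelium, and the RNA came from the whole lung.

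Total reads in genes ran from 17561012 to 20243205 per library, and the 36 collagen genes took 1.41% to 1.66% of them. All 36 passed the filter on low counts, among 18164 genes tested. The 6 epithelial markers (Nkx2-1, Sftpc, Sftpb, Epcam, Cdh1 and Sftpa1) were all detected and summed to between 6317 and 11292 CPM, counts scaled to the library size. Tgfbr1 itself, the gene of the receptor, ran from 79.7 to 98.6 CPM over the 8 libraries, and its log2 difference between mutants and controls was 0.01 ± 0.09 (SE, adjusted p = 0.996). Whether reads of the transgene were counted with it is not stated.

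Because the starts of Col4a1 and Col4a2 lie close together, and these genes and Col18a1 recur in the results, sequences around their starts are shown. Each is 250 bases before to 50 bases after a RefSeq start, in build GRCm38.p6, 5′ to 3′ on the strand of the gene. Capitals mark matches on either strand. The first motif is the CCAAT box, searched by its own letters. The second, the GC box, was searched as GGGCGG. The third is a short run found in SMAD binding sites, CAGAC. The TATA box, searched as TATAAA, is in none of the 4 windows. Matches were counted whether or not they overlap another motif. The Col4a1 window is chr8:11312777-11313076 on the minus strand and the Col4a2 window is chr8:11312555-11312854 on the plus strand. Col18a1 has one window at its upstream start, chr10:77166481-77166780, and another at its downstream start, chr10:77113656-77113955, both on the minus strand.
Col4a1: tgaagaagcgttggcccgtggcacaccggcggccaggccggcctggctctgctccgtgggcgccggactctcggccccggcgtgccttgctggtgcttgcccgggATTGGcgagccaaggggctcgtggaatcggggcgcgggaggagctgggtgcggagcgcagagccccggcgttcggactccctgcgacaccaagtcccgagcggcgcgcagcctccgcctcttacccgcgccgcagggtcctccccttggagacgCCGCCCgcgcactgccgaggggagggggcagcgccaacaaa
Col4a2: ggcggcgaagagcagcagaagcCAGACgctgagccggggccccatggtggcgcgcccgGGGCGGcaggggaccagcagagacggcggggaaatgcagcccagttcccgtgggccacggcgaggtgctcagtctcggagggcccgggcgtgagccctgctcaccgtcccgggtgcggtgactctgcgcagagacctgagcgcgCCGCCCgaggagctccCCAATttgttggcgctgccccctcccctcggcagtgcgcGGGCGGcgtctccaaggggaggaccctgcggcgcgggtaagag
Col18a1 upstream start: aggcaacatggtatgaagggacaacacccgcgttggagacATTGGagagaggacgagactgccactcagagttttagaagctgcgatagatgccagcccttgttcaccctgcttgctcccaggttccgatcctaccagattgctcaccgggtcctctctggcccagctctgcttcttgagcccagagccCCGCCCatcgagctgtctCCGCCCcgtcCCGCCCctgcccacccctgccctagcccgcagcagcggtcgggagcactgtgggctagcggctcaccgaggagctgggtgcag
Col18a1 downstream start: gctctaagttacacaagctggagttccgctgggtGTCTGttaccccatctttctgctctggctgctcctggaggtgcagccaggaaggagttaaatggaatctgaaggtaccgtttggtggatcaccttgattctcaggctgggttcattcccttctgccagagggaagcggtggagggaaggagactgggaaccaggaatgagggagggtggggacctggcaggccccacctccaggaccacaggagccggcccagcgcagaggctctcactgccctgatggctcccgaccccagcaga

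The Col4a1 and Col4a2 windows share 78 bases, from 11312777 to 11312854 of chromosome 8, read on opposite strands. In the GENCODE M21 annotation Col4a1 runs from 11198423 to 11312826 and Col4a2 from 11312805 to 11449287, so that the ends of their annotations overlap by 22 bases. The same head-to-head order holds for Col4a3 and Col4a4, whose starts lie 71 bases apart on chromosome 1, and for Col4a5 and Col4a6, 1308 bases apart on the X chromosome. A window was found for 29 of the 36 genes, 31 windows in all, and not for Col1a1, Col4a3, Col5a2, Col12a1, Col14a1, Col22a1 and Col26a1. The GC box letters were in 64.5% of the 31 windows and in 35.7% of all 32851 windows of this length. CCAAT was in 35.5% against 37.4%, CAGAC in 51.6% against 49.6%, and TATAAA in 9.68% against 13.6%. These are matches of letters and no measure of binding.

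Levels between genes were compared as RPKM, read counts scaled for length and library size, on the longest principal protein-coding transcript. Col4a1, a chain of the basement membrane network, stood highest at 398 ± 62.4 RPKM (mean ± SD over 8 libraries), next to Col3a1, the homotrimeric fibrillar collagen of soft tissue, at 390 ± 26.95; the pair did not differ beyond their spread. Then followed Col6a2 at 271 ± 48.0, Col1a2 at 253 ± 15.0, Col6a1 at 221 ± 43.9, Col4a2 at 209 ± 36.4 and Col1a1 at 194 ± 9.19, a run in which the ranges of neighbours overlap. Col18a1 reached 148 ± 42.4, Col6a3 117 ± 19.9 and Col14a1 70.5 ± 7.33. These 10 genes held 84.6% of the summed level of the 36, and the first 3 held 39.4%. The 8 fibrillar genes held 35.8%, the 6 basement membrane genes 25.6%, the 6 beaded filament genes 22.9%, the 2 multiplexins 7.14%, the 4 transmembrane collagens 4.34% and the 5 FACIT genes (fibril-associated collagens with interrupted helices) 3.96%. Anchoring and hexagonal collagens held 0.126%, and Col26a1 with Col28a1 0.157%. The lowest gene was Col5a3, a minor type V chain, at 0.330 ± 0.0774. The summed level was 2697 ± 147 in the 4 control libraries and 2671 ± 234 in the 4 mutant libraries, so the groups differed by less than their spread.

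**Figure D1:**
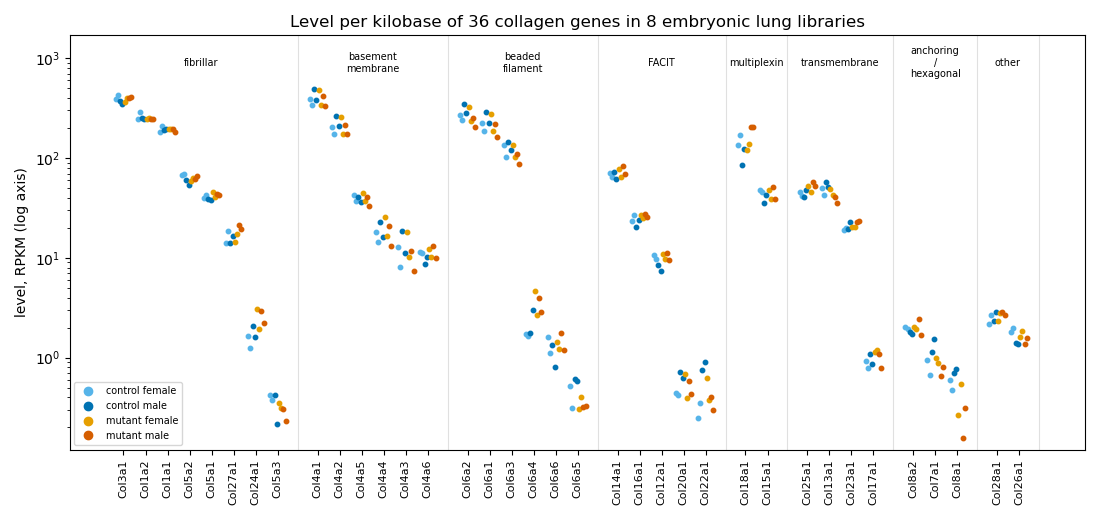
Level of each of the 36 collagen genes in each of the 8 libraries, in RPKM on a log axis (y) and ordered by structural class (x); each point is 1 library, coloured by group. Col4a1 and Col3a1 stand highest and Col5a3 and Col8a1 at the bottom of their classes, and for most genes the colours mix.

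The order depends on the length used. On the merged length of all exons of a gene, Col4a1 (353 RPKM) and Col3a1 (221) stayed highest. Then came Col6a1 at 207, Col4a2 at 204 and Col1a1 at 175, with Col6a2 at 128 and Col1a2 at 109 below them. The deposited RPKM values rest on lengths that were 1.00 to 7.83 times the length of the main transcript, and they put Col6a1 first, at 179 RPKM, then Col3a1 at 170.3 and Col4a2 at 164, with Col4a1 at 152. The ratio of Col1a1 to Col1a2, the chains of type I collagen, was 0.766 per length of the main transcripts and 2.18 in the deposited RPKM. Levels between collagen genes are therefore given here on the main transcript, and differences between libraries, which do not use a length, as CPM.

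No collagen gene passed the test in any of the 6 comparisons in the fit without pairing, edgeR's quasi-likelihood test with Benjamini-Hochberg adjustment at 0.05. Over both sexes 0.0% of all genes passed, in females 0.0%, in males 1.29%, for the interaction of sex and genotype 0.0%, and for males against females 0.0385% in controls and 0.0385% in mutants. At an unadjusted p under 0.05 there were 5 of the 36 collagen genes over both sexes, where 5.84% of all genes were, 2 in females (1.6% of all genes), 10 in males (19.3%), 4 for the interaction (12.5%), 5 for sex in controls (7.78%) and 1 for sex in mutants (5.35%). As shares of the 36 these counts are 13.9%, 5.56%, 27.8%, 11.1%, 13.9% and 2.78%. DESeq2 called 5 collagen genes in males, where it called 5.45% of 15699 genes, and 2 for the interaction, where it called 1.23% of 15346. It called none over both sexes (0.525% of 16755 genes) or in females (0.033% of 18164). None were called for sex in controls (0.0551% of 18164) or for sex in mutants (0.51% of 15699). Libraries with the same number deviated together across the groups, with correlations from 0.180, between control and mutant males, to 0.626. The labels do not say what the number marks, so the pairing comes from the data. The number was also fitted as a block, named the replicate block below. With it, 0.0165% of all genes passed over both sexes and 0.0771% in females, with no collagen gene among them; 7 and 6 of the 36 had an unadjusted p under 0.05, where 7.44% and 6.07% of all genes did. With the block and 1 library left out, no collagen gene was called over both sexes. In females Col4a3, Col6a4 and Col24a1 were called without control male 1 and again without control male 2. Shares of all genes in these leave-out fits are not given here. With the block and all 8 libraries, 16.7% of all genes passed in males (7.3% higher in mutants and 9.43% lower). Of the 36 collagen genes 13 did, 4 higher and 9 lower. For the interaction 9.33% of all genes passed (3.92% higher, 5.41% lower), with 8 collagen genes, 1 higher and 7 lower. The sex difference passed for 3.88% of genes in controls, with 4 collagen genes, and for 1.81% in mutants, with 2. No collagen gene had its 4 mutant libraries all above or all below the 4 controls, where 1.65% and 1.74% of all genes did. Within a sex only 2 libraries are set against 2, and these can readily lie apart without a genotype difference. The share of all genes that lie apart within a sex is not given here. Statements below that mutants lie above or below controls in a sex therefore describe the libraries only.

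The median log2 difference of the 36 was 0.03 in males and 0.04 in females, against 0.01 and 0.00 for all genes tested, and 18 and 21 of them were positive. By class, the median in males was -0.43 for the 6 beaded filament genes (range -0.87 to 0.52), -0.19 for the 6 basement membrane genes (-0.65 to 0.29), 0.16 for the 8 fibrillar genes (-0.24 to 0.48) and 0.58 for the 2 multiplexins (0.20 to 0.97). In females these medians were 0.06, 0.19, -0.07 and -0.18. The lowest male median was that of the 3 anchoring and hexagonal genes, -0.86 (-1.61 to 0.22), against 0.01 in females. The 5 FACIT genes had 0.19 in males (-1.23 to 0.41) and 0.07 in females. The 4 transmembrane genes had 0.04 (-0.52 to 0.31) and 0.12, and Col26a1 with Col28a1 0.08 (0.07 to 0.09) and -0.03. The ranges in males overlap between neighbouring classes, and differences between classes were not tested. Male values below are given for mutant minus control, on the log2 scale, first in the fit without pairing and then with the replicate block. The genotype differences of the 2 sexes were set against each other only by the interaction term, males minus females.

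**Figure D2:**
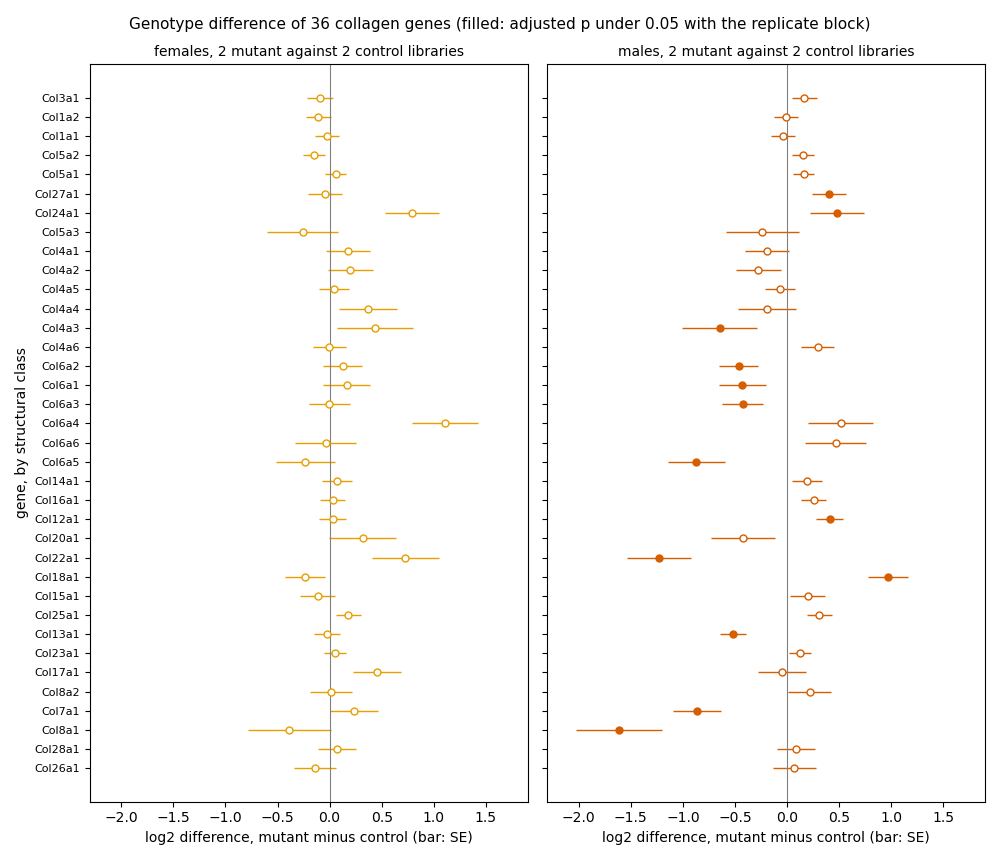
Log2 difference of mutant minus control (x) for each of the 36 collagen genes (y, by class), in females at left and in males at right, from the fit without pairing; bars are the standard error and a filled point passed at an adjusted p of 0.05 with the replicate block. No point is filled in females and 13 are filled in males, where the widest differences are those of Col8a1, Col22a1 and Col18a1.

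Markers of several cell types differed between the same libraries of males. Passing counts below are with the block, where 16.7% of all genes passed in males. Without pairing, where 1.29% did, 0 markers passed for lung epithelium, endothelium and lung mesenchyme. There 1 passed for type 1 alveolar cells, 1 for smooth muscle, 2 for cartilage and 2 for mesothelium. In females the medians were 0.02 for lung epithelium, -0.03 for type 1 alveolar cells, -0.11 for smooth muscle and -0.04 for cartilage. They were 0.01 for endothelium, 0.12 for lung mesenchyme and -0.27 for mesothelium, where 1 of 6 markers was higher in mutants. With the block 1 type 1 alveolar marker passed in females, where 0.0771% of all genes did. Summed markers of lung epithelium were 8271 to 11292 CPM in control males against 6317 to 7745 in mutant males; 1 of 6 was higher in mutants, the median log2 difference was -0.55, and 6 passed with the block. Type 1 alveolar cells were at 2773 to 3649 against 1780 to 2226 CPM, with 0 of 6 higher, a median of -0.85 and 5 passing. Smooth muscle was at 648 to 655 against 469.6 to 526 CPM, with 0 of 6 higher, a median of -0.53 and 3 passing. Cartilage was the other way, at 102 to 114 against 159.6 to 182 CPM, with 7 of 8 tested markers higher, a median of 1.21 and 5 passing. Endothelium was at 2002 to 2089 against 1859 to 1913 CPM, with 1 of 6 higher, a median of -0.15 and 0 passing. Lung mesenchyme was at 2334 to 2444 against 2514 to 2567 CPM, with 4 of 6 higher, a median of 0.04 and 1 passing. The mesothelial sum was 514 to 720.0 against 171 to 269 CPM, but 3 of 6 markers were higher, the median was 0.04 and 2 passed, so the lower sum is not shared by the list. Of the liver list 1 marker of 6 was in the table, at 1.00 to 1.72 against 2.69 to 2.85 CPM. Summed markers of bone, skeletal muscle, cardiac muscle, Schwann cells and nerve, macrophages, erythroid cells and skin overlapped between the male groups. None of the first 7 lists had a marker at 0 in all libraries. The part of these markers in the male collagen differences given next was not tested, and fewer cells of a type and less RNA per cell cannot be told apart in RNA of whole lungs.

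Col18a1, whose C-terminal fragment is endostatin, an inhibitor of vessel growth, was the collagen gene with the smallest p in males. Its level was 647 and 817 CPM in control females, 407 and 596 in control males, 574 and 667 in mutant females and 987 and 978 in mutant males. The mutant male libraries were the highest of all 8 and control male 1 the lowest, and the genotypes overlapped in females. In males the log2 difference was 0.97 ± 0.19 log2 (SE, adjusted p = 0.0538), and it passed with the replicate block (adjusted p = 0.000229), also with each of the 8 libraries left out. In females it was -0.24 ± 0.19 log2 (SE, adjusted p = 1.00). The interaction was 1.21 ± 0.27 log2 (SE, adjusted p = 0.317), and passed with the block (adjusted p = 0.00109) and with each library left out. Without control male 2 the male difference passed in the fit without pairing as well. The 2 windows printed above are separate starts, and reads per gene do not say which was used. Col15a1, the other multiplexin and the source of restin, had 249 and 237 CPM in control females, 185 and 220.2 in control males, 249.7 and 199.6 in mutant females and 266 and 199 in mutant males; the 2 male groups overlapped, and its male difference was 0.20 ± 0.17 log2 (SE, adjusted p = 0.545).

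The fibrillar genes of highest level hardly varied. Col1a1, the major chain of type I collagen, had 1092 and 1254 CPM in control females, 1139 and 1155 in control males, 1159.9 and 1150.1 in mutant females and 1164 and 1072 in mutant males, and Col1a2, its partner, 1332 and 1549 CPM in control females, 1337 and 1309 in control males, 1323 and 1349 in mutant females and 1324 and 1308 in mutant males. In Col1a1 and Col1a2 the 2 genotypes overlapped in both sexes, and the male log2 differences were -0.04 ± 0.12 (SE) and -0.01 ± 0.12 (SE). Col3a1 had 2166 and 2413 CPM in control females, 2069.8 and 1931 in control males, 2051 and 2243 in mutant females and 2238 and 2255 in mutant males; its mutant males lay above its control males, and the difference was 0.17 ± 0.12 log2 (SE, adjusted p = 0.491). Col5a1, a chain of type V collagen, which nucleates fibrils, had 338 and 358 CPM in control females, 331 and 319 in control males, 383 and 341 in mutant females and 367 and 359 in mutant males, with 0.16 ± 0.10 log2 (SE, adjusted p = 0.421) in males. Col5a2, its partner, ran from 358 to 456 CPM and Col5a3 from 1.33 to 2.56 CPM, and neither passed.

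2 minor fibrillar genes, Col24a1 and Col27a1, passed in males with the block. Col24a1, a fibrillar collagen found with type I in developing bone, had 11.9 and 8.98 CPM in control females, 15.0 and 11.6 in control males, 22.1 and 13.9 in mutant females and 20.997 and 16.1 in mutant males. In each sex both mutant libraries stood above both controls. The difference was 0.48 ± 0.26 log2 (SE, adjusted p = 0.349) in males (adjusted p = 0.0286 with the block) and 0.79 ± 0.26 log2 (SE, adjusted p = 1.00) in females. The call with the block was lost without control female 1, control female 2, control male 1, mutant male 1 or mutant male 2, at adjusted p from 0.0551 to 0.170 and values from 0.42 to 0.52 log2. Without pairing its male value was 0.31 without control male 2 and 0.27 without mutant male 1. Over both sexes the difference was 0.63 ± 0.19 log2 (SE, adjusted p = 0.666). The authors' deposited table compares mutants and controls over both sexes and puts 4.05% of its genes at an FDR under 0.05; for Col24a1 it gives a log2 fold change of 0.64 and an FDR of 3.95e-05. Col27a1, a fibrillar collagen best known from cartilage, had 107 and 142 CPM in control females, 107 and 127 in control males, 109.6 and 132 in mutant females and 162 and 148 in mutant males. The mutant males were the 2 highest libraries, at 0.40 ± 0.16 log2 (SE, adjusted p = 0.223), and the call with the block (adjusted p = 0.0286) was kept in 6 of the 8 leave-outs. It was lost without control male 1 (adjusted p = 0.0648) and without mutant male 1, where the block value fell to 0.18 log2 (adjusted p = 0.432), and the value rose to 0.63 without mutant male 2.

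Of the 6 basement membrane genes, 1 passed in males with the block, Col4a3. Col4a1 had 2565 and 2271 CPM in control females, 3228 and 2524 in control males, 3216 and 2236 in mutant females and 2804 and 2227 in mutant males, and Col4a2, its partner in the common type IV network, 1310.2 and 1133 CPM in control females, 1691 and 1340.3 in control males, 1683 and 1121 in mutant females and 1391 and 1113 in mutant males. In both, libraries numbered 1 lay above those numbered 2 in every group, and genotypes overlapped in each sex; the male differences were -0.19 ± 0.21 (SE) and -0.28 ± 0.21 (SE). Col4a3, a chain of the second network, found in lung alveoli and kidney glomeruli, had 109.9 and 69.4 CPM in control females, 159 and 96.3 in control males, 156 and 86.4 in mutant females and 100.4 and 62.9 in mutant males. Number 1 lay above number 2 in every group, and genotypes overlapped in each sex. The male difference was -0.65 ± 0.36 log2 (SE, adjusted p = 0.366) and adjusted p = 0.000508 with the block, kept in 8 of 8 leave-outs at values from -0.68 to -0.61 log2. Without pairing single libraries moved the male value, to -0.24 without control male 1, -0.35 without mutant male 2 and -1.03 without mutant male 1. Its interaction was -1.08 ± 0.51 log2 (SE, adjusted p = 0.415), and adjusted p = 0.000505 with the block, kept in 8 of 8 at -1.13 to -0.97 log2; without pairing it was -0.67 without control male 1 and -0.59 without mutant female 1. In Col4a3, 5.65% of exon bases are shared with C430014B12Rik on the opposite strand, and whether counting used strand is not stated. Col4a4, its head-to-head partner, had 185 and 146 CPM in control females, 229 and 165 in control males, 259 and 168 in mutant females and 213 and 133 in mutant males, with -0.19 ± 0.28 log2 (SE, adjusted p = 0.741) in males. Its interaction, -0.56 ± 0.39 log2 (SE, adjusted p = 0.546), passed with the block (adjusted p = 0.0258) and was lost without control female 1, mutant female 1 or mutant male 2 (adjusted p from 0.124 to 0.183). Without pairing that interaction was -0.30 without control male 1, -0.21 without mutant female 1, -0.26 without mutant male 2 and -0.94 without mutant male 1. Col4a6, of the third network, had 76.2 and 74.5 CPM in control females, 58.0 and 68.3 in control males, 82.4 and 68.1 in mutant females and 88.2 and 66.6 in mutant males, with 0.29 ± 0.16 log2 (SE, adjusted p = 0.353) in males, and Col4a5 ran from 218 to 293 CPM, with a male difference of -0.07 ± 0.14 (SE).

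The 3 classical chains of type VI collagen, Col6a1, Col6a2 and Col6a3, which assemble into 1 molecule, were lower together in mutant males. Col6a1 had 926 and 762 CPM in control females, 1193 and 918 in control males, 1127 and 767 in mutant females and 895 and 672 in mutant males. Col6a2 had 1075 and 943 CPM in control females, 1385 and 1123 in control males, 1278 and 923 in mutant females and 1002 and 817 in mutant males. Col6a3, the chain that carries the cleaved endotrophin fragment, had 1228 and 920.3 CPM in control females, 1306 and 1074 in control males, 1209.7 and 932 in mutant females and 979 and 795 in mutant males. In each of the 3, both mutant male libraries lay below both control male libraries, and the 2 genotypes overlapped in females. The male differences were -0.43 ± 0.23 log2 (SE, adjusted p = 0.338) for Col6a1, -0.46 ± 0.19 log2 (SE, adjusted p = 0.234) for Col6a2 and -0.42 ± 0.20 log2 (SE, adjusted p = 0.282) for Col6a3. With the replicate block they passed at adjusted p = 0.00838, adjusted p = 0.00606 and adjusted p = 0.00642. All 3 calls were lost without mutant male 1 (adjusted p from 0.0674 to 0.0850), and that of Col6a1 also without mutant male 2 (adjusted p = 0.0711). Without pairing, leaving out control male 1 brought the male values to -0.23, -0.30 and -0.28 log2 for Col6a1, Col6a2 and Col6a3. Without mutant male 2 those of Col6a1 and Col6a3 were -0.24 and -0.28, and without mutant male 1 that of Col6a1 was -0.66. The interaction passed with the block for Col6a1 (adjusted p = 0.0175) and Col6a2 (adjusted p = 0.0192); each was lost without either control female, mutant female 1 or either mutant male (adjusted p from 0.0558 to 0.143). Without pairing and without mutant female 1 the interactions were -0.29 and -0.33 log2, and that of Col6a1 was -0.39 without control male 1.

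The minor type VI chains went different ways. Col6a4 had 12.7 and 12.3 CPM in control females, 13.0 and 22.2 in control males, 34.3 and 19.6 in mutant females and 29.1 and 21.2 in mutant males. In females both mutant libraries stood above both controls, while in males control 2 lay among the mutants. Over both sexes the difference was 0.81 ± 0.24 log2 (SE, adjusted p = 0.666) and the authors' deposited table gives a log2 fold change of 0.78 and an FDR of 0.00115. Col6a5 had 4.82 and 2.94 CPM in control females, 5.68 and 5.37 in control males, 2.82 and 3.76 in mutant females and 2.96 and 3.08 in mutant males, few reads, with mutant males below control males at -0.87 ± 0.28 log2 (SE, adjusted p = 0.154) and adjusted p = 0.0406 with the block, lost without any 1 of the 4 male libraries (adjusted p from 0.0643 to 0.215). Col6a6 ran from 7.15 to 15.7 CPM and did not pass.

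Among the anchoring and hexagonal collagens, Col7a1, the anchoring fibril that fastens stratified epithelium to the matrix below, had 8.71 and 6.21 CPM in control females, 10.5 and 14.1 in control males, 9.28 and 8.27 in mutant females and 6.03 and 7.42 in mutant males. Both mutant males lay below both control males, at -0.86 ± 0.23 log2 (SE, adjusted p = 0.111); the call with the block was adjusted p = 0.0167. It was lost without mutant male 1 (adjusted p = 0.142) and without control male 2, where the block value was -0.57 log2 (adjusted p = 0.131). Its interaction was -1.10 ± 0.33 log2 (SE, adjusted p = 0.363) and adjusted p = 0.0432 with the block, lost without control female 2, control male 2, either mutant female or mutant male 1 (adjusted p from 0.0639 to 0.237). Col8a1, a short-chain collagen that forms hexagonal lattices, had 3.02 and 2.44 CPM in control females, 3.56 and 3.93 in control males, 1.36 and 2.81 in mutant females and 0.808 and 1.61 in mutant males. The mutant males were among the lowest 3 libraries, with -1.61 ± 0.41 log2 (SE, adjusted p = 0.0991) in males and adjusted p = 0.00740 with the block, lost without mutant male 1 (adjusted p = 0.0733). Over both sexes it was -0.99 ± 0.35 log2 (SE, adjusted p = 0.781), and the authors' deposited table gives a log2 fold change of -0.96 and an FDR of 0.0461. Col8a2 ran from 7.28 to 10.6 CPM and did not pass.

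Of the FACIT genes, Col12a1, which decorates type I fibrils, had 124 and 112 CPM in control females, 96.8 and 84.3 in control males, 127 and 113 in mutant females and 130.0 and 110.2 in mutant males. Its mutant males lay above its control males, at 0.41 ± 0.13 log2 (SE, adjusted p = 0.147) and adjusted p = 0.00562 with the block, lost without mutant male 1 (adjusted p = 0.0859). Col14a1, undulin, had 404 and 366 CPM in control females, 408 and 350.1 in control males, 442 and 367 in mutant females and 474 and 394 in mutant males, with overlapping genotypes and 0.19 ± 0.14 log2 (SE, adjusted p = 0.494). Col16a1 had 123 and 141 CPM in control females, 106 and 125 in control males, 139.7 and 129 in mutant females and 143 and 133 in mutant males, with 0.26 ± 0.12 log2 (SE, adjusted p = 0.295). Col22a1, known from tissue junctions of muscle and tendon, had 2.21 and 3.10 CPM in control females, 6.57 and 7.92 in control males, 5.53 and 3.29 in mutant females and 3.55 and 2.64 in mutant males. Here controls and mutants crossed over: control males were the highest libraries, while control females and mutant male 2 were the lowest. The male difference was -1.23 ± 0.31 log2 (SE, adjusted p = 0.0955) (adjusted p = 0.0108 with the block, lost without control male 2 or mutant male 2 at adjusted p = 0.0575 and 0.101). The interaction was -1.95 ± 0.44 log2 (SE, adjusted p = 0.317) (adjusted p = 0.0117 with the block, lost without control female 1 or mutant female 1 at adjusted p = 0.0802 and 0.103). With 639 reads in all 8 libraries together it rests on few counts. Col20a1 ran from 1.96 to 3.62 CPM.

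Of the transmembrane collagens, Col13a1, which sits at cell-matrix junctions, had 158 and 136 CPM in control females, 182 and 164 in control males, 155 and 135 in mutant females and 129 and 113 in mutant males. Both mutant males were below every other library, at -0.52 ± 0.13 log2 (SE, adjusted p = 0.0880), and the call with the block, adjusted p = 0.00116, was kept in 8 of 8 leave-outs. Its interaction, -0.50 ± 0.18 log2 (SE, adjusted p = 0.370), passed with the block (adjusted p = 0.0174) and was lost without either control female, mutant female 1 or either mutant male (adjusted p from 0.0714 to 0.122). The authors' deposited table gives it a log2 fold change of -0.26 and an FDR of 0.00442 over both sexes. Col25a1, which motor innervation of muscle needs, had 119.7 and 109.6 CPM in control females, 106 and 126 in control males, 138 and 121 in mutant females and 150.0 and 138 in mutant males, with mutants above controls in each sex, 0.31 ± 0.12 log2 (SE, adjusted p = 0.219) in males and 0.25 ± 0.09 log2 (SE, adjusted p = 0.786) over both sexes; the authors' deposited table gives an FDR of 0.0477. Col23a1 ran from 108 to 131 CPM and Col17a1, the hemidesmosome collagen of basal epithelium, from 4.27 to 6.57 CPM. Col26a1 had 4.94 and 5.43 CPM in control females, 3.84 and 3.77 in control males, 4.39 and 5.03 in mutant females and 3.71 and 4.25 in mutant males, and Col28a1, a collagen of peripheral nerve, had 9.24 and 11.3 CPM in control females, 9.91 and 12.2 in control males, 9.87 and 11.8 in mutant females and 12.1 and 11.4 in mutant males; their male differences were 0.07 ± 0.21 log2 (SE, adjusted p = 0.884) and 0.09 ± 0.18 log2 (SE, adjusted p = 0.824).

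**Figure D3:**
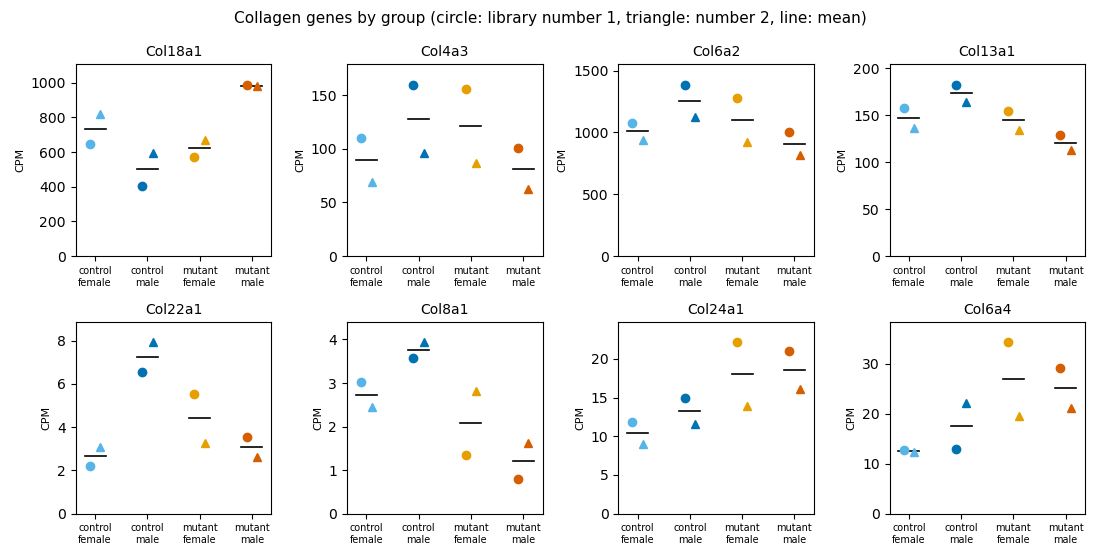
Level in CPM (y, linear from 0) of 8 of the collagen genes described above, by group (x); circles are libraries numbered 1, triangles libraries numbered 2, and lines are group means. Col18a1 is lowest in control males and highest in mutant males, Col4a3 shows number 1 above number 2 in every group, and Col13a1 is lowest in mutant males.

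In controls, males and females differed with the block for 4 collagen genes, and without pairing for none. Col4a3 was higher in males, at 0.51 ± 0.36 log2 (SE, adjusted p = 0.635) without pairing and adjusted p = 0.00977 with the block. Col22a1 was higher too, at 1.44 ± 0.32 log2 (SE, adjusted p = 0.602) and, with the block, adjusted p = 0.0194. Col12a1 was lower in males, at -0.38 ± 0.13 log2 (SE, adjusted p = 0.602) and, with the block, adjusted p = 0.0261. Col18a1 was lower as well, at -0.54 ± 0.19 log2 (SE, adjusted p = 0.602) and, with the block, adjusted p = 0.0253. In mutants Col18a1 was higher in males, at 0.66 ± 0.19 log2 (SE, adjusted p = 0.735) without pairing and adjusted p = 0.0116 with the block, and Col4a3 was lower, at -0.57 ± 0.36 log2 (SE, adjusted p = 0.946) and, with the block, adjusted p = 0.00603. Without pairing, single left-out libraries took the Col4a3 difference from 0.10 to 0.88 log2 in controls and from -0.95 to -0.08 in mutants; the lowest size came without control male 1 and without mutant female 1. The Col18a1 difference in controls was -0.30 without control male 1 and -0.85 without control male 2. For both genes the sex difference had opposite signs in the genotypes. These comparisons share libraries with the genotype comparisons above and add no independent libraries. Leaving out a single library took the calls to 0 in both: the 4 in controls without either control female, and the 2 in mutants without mutant female 1 or mutant male 1.

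Ratios of read counts need no scaling between libraries, and in 4 of the 6 the SD of the log2 ratio was below that of both genes; the exceptions were Col4a5 to Col4a6 and Col3a1 to Col1a1. The read count of Col4a1 was 1.88 to 2.02 times that of Col4a2 in the 8 libraries, an SD of 0.04 in the log2 ratio, against 0.22 and 0.24 for the log2 level of each gene. Col1a1 to Col1a2 ran from 0.81 to 0.88, and Col6a1 to Col6a2 from 0.81 to 0.89, with an SD of 0.05 in both. Col4a3 to Col4a4 ran from 0.47 to 0.70, Col4a5 to Col4a6 from 3.001 to 4.63, and Col3a1 to Col1a1 from 1.67 to 2.10. Mutant and control libraries were compared by an exact two-sided permutation test over 70 splits, whose smallest p is 0.0286; the 6 ratios gave adjusted p = 0.514 throughout, with the smallest unadjusted p at 0.286 for Col4a1 to Col4a2. The mutant minus control difference of that log2 ratio was 0.03. A single ratio at the smallest possible p could not pass after adjustment over the 6. When labels are exchanged only between libraries of the same sex and number, the smallest p is itself above 0.05, so that none could pass.

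**Figure D4:**
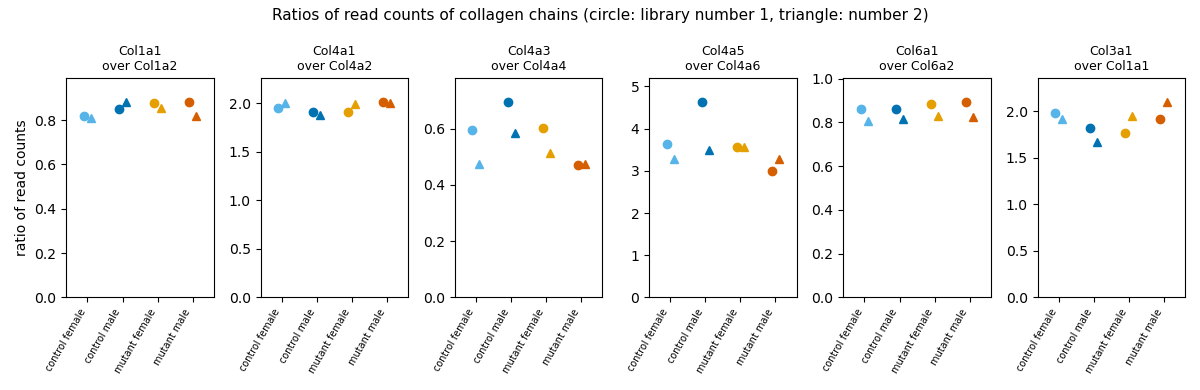
Ratio of read counts of 6 pairs of collagen chains (y, linear from 0) in each library, by group (x); circles are libraries numbered 1 and triangles libraries numbered 2. Col4a1 over Col4a2 stays between 1.88 and 2.02, and Col4a5 over Col4a6 spreads from 3.001 to 4.63.

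Libraries numbered 1 and 2 differed in the same direction for many collagen genes. Of the 36 genes, 16 had number 1 above number 2 in all 4 groups, which is 44.4% against 17.1% of all genes; none had number 2 above number 1 in all 4, against 15.4% of all genes. The 16 were Col4a1, Col4a2, Col4a3, Col4a4, Col4a5, Col5a3, Col6a1, Col6a2, Col6a3, Col6a6, Col8a2, Col12a1, Col13a1, Col14a1, Col20a1 and Col24a1, which take in 5 of the 6 basement membrane and 4 of the 6 beaded filament genes. The median of the mean log2 difference, number 1 minus number 2, was 0.35 for basement membrane and 0.33 for beaded filament genes, -0.02 for fibrillar genes, 0.14 for all 36 and 0.01 for all genes. Summed markers of lung epithelium, type 1 alveolar cells, mesothelium and macrophages were also higher in number 1 in all 4 groups, and cartilage and cardiac muscle in none. What the number stands for is not stated, and the part of these markers in the pattern was not tested.

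**Figure D5:**
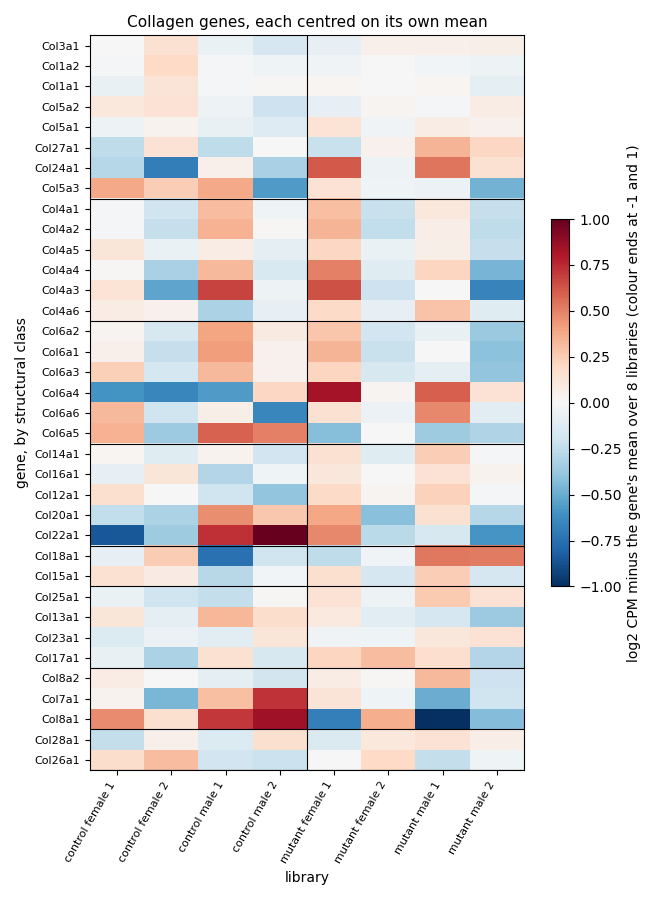
Log2 CPM of each collagen gene (y, by class) minus its mean over the 8 libraries (x), red above and blue below the mean, with the colour ending at -1 and 1. Col4a1 to Col4a4 and Col6a1 to Col6a3 are redder in libraries numbered 1 than in those numbered 2, Col18a1 is reddest in mutant males, and the top 3 fibrillar rows are pale throughout.

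Of the genes that make, process, bind and degrade collagen, 58 of 60 were in the table. In the fit without pairing none passed over both sexes, in females or for the interaction, and 2 passed in males, both small leucine-rich proteins that bind fibrils: Fmod and Prelp. Fmod, fibromodulin, had 124 and 150.4 CPM in control females, 72.7 and 127 in control males, 189 and 169 in mutant females and 297 and 237 in mutant males. Prelp had 23.5 and 29.2 CPM in control females, 22.3 and 25.2 in control males, 29.5 and 28.4 in mutant females and 45.0 and 44.6 in mutant males. Both mutant males lay above every control library for each. The male differences were 1.42 ± 0.24 log2 (SE, adjusted p = 0.0370) for Fmod and 0.91 ± 0.13 log2 (SE, adjusted p = 0.0312) for Prelp. The 2 are 3.45% of the 58, against 1.29% of all genes. With the block 7 were higher (12.1%) and 10 lower (17.2%) in males, against 7.3% and 9.43% of all genes; 4 of the 17 calls (Ddr1, Fmod, Pcolce2, Prelp) were kept with each library left out. Of the 9 fibril partners Dcn, Fmod and Prelp were higher and Bgn and Fn1 lower, the last at -0.88 ± 0.26 log2 (SE, adjusted p = 0.136) without pairing and adjusted p = 0.00402 with the block. Of the 7 genes for propeptide removal Pcolce2, Adamts2 and Adamts14 were lower, with -1.14 ± 0.24 log2 (SE, adjusted p = 0.0617) without pairing and adjusted p = 0.00166 with the block for Pcolce2, an enhancer of the procollagen C-proteinase. Of the 5 cross-linking enzymes Loxl1 was lower, at -0.45 ± 0.11 log2 (SE, adjusted p = 0.0811) without pairing and adjusted p = 0.00503 with the block. Of 15 enzymes of chain modification P3h2 and Crtap were higher, and of 7 for folding and export Tmem38b was lower. Of 10 receptors Itga2 was higher and Itga11 and Ddr1 lower, the latter a kinase that binds collagen, with block adjusted p = 0.000891 in males. Of 5 collagenases Mmp2 was higher and Mmp9 lower. By the interaction with the block, 2 of the 58 (3.45%, against 3.92% of all genes) were higher in males relative to females (Fmod, Prelp). The 8 that were lower (13.8%, against 5.41%) were Bgn, Fn1, Pcolce2, Adamts2, Adamts14, Loxl1, Itga11 and Ddr1. Each of these interaction calls, higher or lower, was lost with at least 1 library left out. The block interaction of Fmod was 0.65 log2 without control male 1 and 1.53 without control male 2. That of Adamts14 was -0.83 without mutant female 1 and -1.60 without mutant female 2.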

How the data were processed

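The authors' deposited table holds whole-number read counts per gene and library, RPKM values, a gene length, and one comparison of mutant against control with log2 fold change, a likelihood ratio score, p-value and FDR. The submitters' processing notes name STAR 2.5.2b, HTSeq 0.6.1p2, edgeR 3.16.5, Trimmomatic 0.35 and cutadapt 1.13, with no roles; a genome build or annotation was not given in the sources used here. No gene has under 28 reads over the 8 libraries, so genes with fewer are not in the table.

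edgeR 4.0.16 (R 4.3.3) was run on the deposited counts with TMM scaling (factors 0.975 to 1.02), filterByExpr with a minimum count of 10, its quasi-likelihood test and Benjamini-Hochberg adjustment over all 18164 genes tested. The fit over both sexes had sex and genotype as terms; the others had the 4 group means. CPM uses the TMM-scaled library size. The fit without pairing was tested on simulated data for the male comparison only, with no effect of the library number. The fit with the replicate block was not tested in this way. Samples were grouped by their titles, and columns were assigned to samples by title. Libraries with the same number deviated together from their group means, with correlations from 0.180 to 0.626 over 12793 genes, the lowest between control and mutant males; the labels do not say what the number marks, so the pairing comes from the data. The replicate block adds the number as a term. Coordinates, transcript lengths and overlaps come from GENCODE M21 (GRCm38), where all 36 genes matched by identifier, and start windows from RefSeq (GRCm38.p6).

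Values in every library are given for the 10 collagen genes of highest level, for any that passed without the block, and for the 2 of smallest p in each class in males and over both sexes. The collagen genes and the lists were chosen with earlier results of these data known. Alternatives were DESeq2 1.42.0, its size factors in edgeR, limma-voom (limma 3.58.1), no filter on low counts, the block, each sex alone, each library left out, other lengths, and the authors' deposited comparison. Merged exon length and the block with a library left out were chosen after seeing the data.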

Additional observations from a re-analysis of the deposited data

Results flagged for a closer look

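In 4 cases 1 library stood apart from the other 3 with the same genotype by Dixon's test at 95%, of 68 groups of 4 tested; chance flags about 1 in 20. Col1a1 was 1072 CPM in mutant male 2, where the other mutants had 1160, 1150 and 1164. Col1a2 was 1549 CPM in control female 2, against 1332, 1337 and 1309 in the other controls. Col3a1 was 2051 CPM in mutant female 1, against 2243, 2238 and 2255. Col6a4 was 22.2 CPM in control male 2, against 12.7, 12.3 and 13.0 in the other controls, near the 19.6 to 34.3 CPM of the mutants.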

How the results depend on the processing

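Without pairing, 0 of the 36 collagen genes passed in each comparison, and DESeq2's size factors in edgeR, limma-voom and no filter on low counts left all of these at 0. DESeq2 called 5 in males (Col7a1, Col8a1, Col13a1, Col18a1, Col22a1) and 2 for the interaction (Col18a1, Col22a1). The fit on male libraries alone called Col18a1. With 1 library left out, the only male call was Col18a1, without control male 2. The authors' deposited comparison over both sexes has 5 (Col6a4, Col8a1, Col13a1, Col24a1, Col25a1) at an FDR under 0.05. The replicate block gave 13 in males, 8 for the interaction, 4 for sex in controls and 2 for sex in mutants, and it changed no other count of calls. With the block and each library left out, females had 0 to 3 calls (Col4a3, Col6a4 and Col24a1 without either control male), males 4 to 15, the interaction 2 to 12, sex in controls 0 to 7 and sex in mutants 0 to 3. The lowest male count, 4, came without mutant male 1 (Col4a3, Col13a1, Col18a1, Col22a1), and the highest, 15, without control male 2. For the interaction the count was 2 without mutant female 1, 3 without control female 1, 4 without control female 2 or mutant male 1, 5 without mutant male 2 and 12 without control male 1. Sex in mutants had 1 without mutant female 2. Shares of all genes in the leave-out fits and in the fit on male libraries alone are not given here. Whether the moves are particular to collagen genes therefore cannot be told. The cause of these moves was not tested. Col5a3, Col8a1 and Col20a1 rest on the fewest reads, 296, 357 and 396 over all 8 libraries. Of 56 levels per length, 37 moved with the length used.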
